A study of Mus musculus with 12 samples.

Results

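Krtdap, Sbsn and Dmkn are 3 genes that lie side by side on mouse chromosome 7, in the order Sbsn, Dmkn, Krtdap, and encode proteins secreted by keratinocytes of stratified epithelia. They were taken by symbol and matched to the Entrez identifiers 64661 (Krtdap), 282619 (Sbsn) and 73712 (Dmkn) of the deposited tables. The 3 genes are set against 17665 identifiers with values at both ages. Expression was measured by RNA sequencing of dorsal epidermis from C57BL/6 mice that were fl/fl for VDR, the vitamin D receptor, and for its coactivator Med1, a subunit of Mediator. Control mice were K14 Cre-/-. Double knockout (DKO) mice were K14 Cre+/-, so Cre is driven by the keratin 14 promoter, which works in basal keratinocytes and marks all cells that come from them. There were 4 groups of 3 libraries: control and DKO at postnatal day 36 (P36), and control and DKO at 6 months. All groups carry the floxed alleles. Whether the 3 libraries of a group are separate animals is not in the labels. The p-values therefore reflect the spread between samples, which may be technical.

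Keratinocytes are born in the basal layer and move outward through the spinous and granular layers before they die as cornified cells. Krtdap (keratinocyte differentiation-associated protein), Sbsn (suprabasin) and Dmkn (dermokine) are switched on after cells leave the basal layer, and their products are secreted. The 3 genes are known together as the stratified epithelium secreted peptides complex. Suprabasin is rich in glycine and can be crosslinked by transglutaminases, and dermokine is made in several isoforms from more than one transcription start.

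The sequences just before the starts of transcription are shown because the 3 genes are neighbours whose levels moved together in the data. They come from RefSeq (build GRCm38.p6, plus strand), where 3 of 3 genes had an entry. The deposited tables carry no coordinates. Each window is the 250 bases before a start, and Dmkn has an upstream and a downstream start. Capitals mark a match to TGANTCA, which reads the same way on both strands. This is a loose form of the AP-1 site. It takes any base in the middle, where the AP-1 site has C or G.
Krtdap, chr7:30787655-30787904: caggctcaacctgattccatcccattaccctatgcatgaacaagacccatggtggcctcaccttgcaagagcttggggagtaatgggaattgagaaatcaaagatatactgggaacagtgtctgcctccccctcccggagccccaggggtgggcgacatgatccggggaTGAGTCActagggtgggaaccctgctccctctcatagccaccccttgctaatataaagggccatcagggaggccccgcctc
Sbsn, chr7:30751221-30751470: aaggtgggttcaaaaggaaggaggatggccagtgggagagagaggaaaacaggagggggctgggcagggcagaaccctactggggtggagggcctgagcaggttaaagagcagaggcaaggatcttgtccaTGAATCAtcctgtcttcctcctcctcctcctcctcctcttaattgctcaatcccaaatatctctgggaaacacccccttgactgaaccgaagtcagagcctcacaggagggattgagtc
Dmkn upstream start, chr7:30763506-30763755: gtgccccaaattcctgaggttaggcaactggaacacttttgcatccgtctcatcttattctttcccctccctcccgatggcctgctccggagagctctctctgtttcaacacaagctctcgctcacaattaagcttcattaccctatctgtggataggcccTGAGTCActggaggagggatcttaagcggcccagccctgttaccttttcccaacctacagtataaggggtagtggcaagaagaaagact
Dmkn downstream start, chr7:30776155-30776404: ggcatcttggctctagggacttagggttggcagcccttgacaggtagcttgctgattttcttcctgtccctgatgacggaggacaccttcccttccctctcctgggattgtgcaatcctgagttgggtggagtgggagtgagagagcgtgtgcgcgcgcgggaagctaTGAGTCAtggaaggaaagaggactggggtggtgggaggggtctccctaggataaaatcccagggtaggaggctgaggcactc

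Each of the 4 windows held 1 match to TGANTCA. It began 81 bases before the start in Krtdap, 119 in Sbsn, and 89 and 82 in the upstream and downstream windows of Dmkn. The matched letters were TGAGTCA in Krtdap and in both Dmkn windows. In Sbsn they were TGAATCA, with A in the middle, so this match is not the AP-1 site itself. Among 32851 windows of the same length in the RefSeq table, 6.75% held the loose form TGANTCA on either strand. The letters CCACCC, a KLF-type motif, were in 3 of the 4 windows on either strand and in 28.1% of all windows. TATAAA was in the Krtdap window, 30 bases before the start, and in 12.4% of all windows. AGGTCA, a nuclear receptor element, was in 0 of the 4 windows and in 14% of all windows. These matches are descriptions of letters in short windows, and binding was not measured.

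Values are FPKM, fragments scaled by gene length and library total. The targeted genes were examined first. Med1 stood at 13.8 ± 0.504 FPKM in control and 9.11 ± 1.11 in DKO at P36 (SD, n = 3; log2 fold change −0.55, limma adjusted p = 0.0083), and at 14.2 ± 2.21 and 11.6 ± 0.256 at 6 months (adjusted p = 0.13). The libraries labelled DKO did not have less Vdr, with 68.0 ± 4.16 and 83.5 ± 6.06 FPKM at P36 and 40.5 ± 11.6 and 48.1 ± 5.49 at 6 months (adjusted p = 0.0573 and 0.302). Each direction below therefore rests on the label. These whole-gene values do not resolve the floxed exons. The 4 keratinocyte markers Krt5, Krt14, Krt1 and Krt10 summed to 3479 to 14048 FPKM per library. The sum of FPKM per library ranged from 446617 to 554382, with 12056 to 12760 genes at 1 FPKM or more. The number of reads behind these values is unknown.

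All 3 genes were among the abundant transcripts of the epidermis, and their order of level differed between the ages. In control epidermis at P36, the mean was highest for Dmkn (1018 ± 176 FPKM), followed by Sbsn (754 ± 93.2) and Krtdap (646 ± 169.7; SD, n = 3). Sbsn and Krtdap lay within each other's spread there. At 6 months, control means were 6385 ± 653 FPKM for Krtdap, 4014 ± 489 for Dmkn and 3473 ± 412 for Sbsn, where the last 2 overlapped. Krtdap had the highest FPKM of any gene in 5 of the 6 libraries at 6 months and ranked 2 in control replicate 2, whereas at P36 it ranked between 41 and 160. Together the 3 genes made up 0.376% to 0.518% of the FPKM total in control libraries at P36 and 2.75% to 3.30% in control libraries at 6 months.

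Set across the 2 tables, control means at 6 months were 9.88 times those at P36 for Krtdap, 4.61 times for Sbsn and 3.94 times for Dmkn. In DKO the same ratios were 4.69, 1.64 and 1.80. Every 6-month library lay above every P36 library of its genotype for each gene. Age and table cannot be told apart here, so these ratios were not tested. A list of 13 measured hair shaft and inner root sheath genes summed to 26703 to 31342 FPKM in control at P36, 11150 to 15044 in DKO at P36 and 10.5 to 38.1 in all 6-month libraries, and its part in the age ratios was not tested. In whole epidermis, fewer cells of a type and less RNA per cell cannot be told apart.

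**Figure D1:**
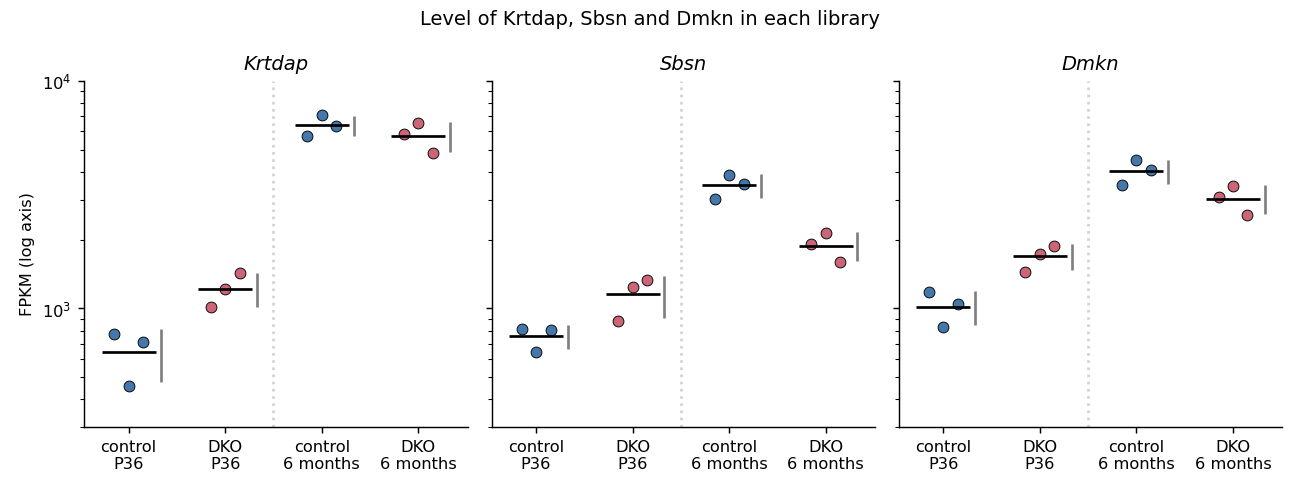
FPKM (log axis) of Krtdap, Sbsn and Dmkn in each of the 12 libraries; bars are group means, grey lines ± 1 SD (n = 3), and the dotted line divides the 2 deposited tables. At P36 every DKO library lies above every control library for all 3 genes, and at 6 months the groups are apart for Sbsn and Dmkn and overlap for Krtdap.

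At P36, all 3 genes were higher in the libraries labelled DKO, and Krtdap and Dmkn passed the test. Krtdap read 775, 454 and 710 FPKM in the control libraries and 1016, 1218 and 1435 in DKO. Control replicate 2 was the lowest, and the groups did not overlap. On the log2(FPKM + 1) scale it rose by 0.94, a fitted fold of 1.92 (SE 0.22, limma adjusted p = 0.0185).

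Dmkn read 1179, 830 and 1045 FPKM in control and 1449, 1743 and 1887 in DKO at P36, again without overlap. It rose by 0.74 on the log2 scale (SE 0.17, limma adjusted p = 0.0178). Sbsn read 810, 647 and 806 FPKM in control and 879, 1245 and 1337 in DKO. Its groups were apart too, but DKO replicate 1 lay close to the control libraries, and the log2 difference of 0.60 (SE 0.18) missed the threshold (limma adjusted p = 0.0509). In this comparison 23.3% of 12660 genes were called, 18.0% as higher and 5.32% as lower. The groups of 39.6% of genes did not overlap, 30.0% with DKO higher and 9.63% with DKO lower.

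The P36 calls of Krtdap and Dmkn depended on single libraries. Without DKO P36 replicate 2 the limma adjusted p was 0.0631 for Krtdap and 0.0648 for Dmkn, without DKO P36 replicate 3 it was 0.0749 and 0.0794, and Dmkn was also lost without control P36 replicate 2 (0.0501). Sbsn, in contrast, was called without DKO P36 replicate 1 (log2 fold change 0.78, adjusted p = 0.0155). Median-ratio scaling also ended both calls (Krtdap 0.81, adjusted p = 0.05; Dmkn 0.60, adjusted p = 0.0616). Under that scaling the called genes divided into 58.9% higher and 41.1% lower, against 77.1% higher as deposited.

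Markers of other compartments moved with the P36 comparison. Of 13 measured hair shaft and inner root sheath genes 13 fell and 0 rose. Of the 4 keratinocyte markers 3 rose, with their sum at 3479 to 5547 FPKM in control and 8319 to 11157 in DKO. Of 11 tested skeletal muscle genes 3 met the filter on low values (1 FPKM in 3 libraries) through the DKO libraries alone, so they had to differ. Of the other 8, 7 rose, and the whole list summed to 15.6 to 32.8 FPKM in control and 147 to 615 in DKO. In DKO replicates 1, 2 and 3, where Krtdap stood at 1016, 1218 and 1435 FPKM, the muscle sum was 615, 355 and 147 FPKM. The sum of the 4 keratinocyte markers in the same libraries was 8319, 9952 and 11157 FPKM, in the same order as Krtdap. In the adipocyte list 1 of 7 tested genes met the filter through DKO alone, and 5 of the other 6 rose, as did 4 of 8 dermal fibroblast genes. Summed macrophage, neutrophil and mast cell genes stood at 67.7 to 135 FPKM in control and 273 to 415 in DKO, and Langerhans cell genes at 292 to 392 and 580 to 718. Their part in the rise of the 3 genes was not tested.

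At 6 months, Sbsn fell in the libraries labelled DKO and the other members did not pass the test. Sbsn read 3032, 3848 and 3540 FPKM in control and 1930, 2138 and 1599 in DKO, with a wide gap between the groups. The change was −0.88 on the log2(FPKM + 1) scale (fitted fold 0.543, SE 0.16, limma adjusted p = 0.0051). It was called in all 6 fits that left out 1 library.

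Dmkn read 3506, 4481 and 4054 FPKM in control and 3106, 3451 and 2572 in DKO. The highest DKO library was just below the lowest control library, and the log2 difference was −0.40 (SE 0.17, limma adjusted p = 0.0894). With totals computed without keratin, keratin-associated and cornified envelope genes, Dmkn was called lower (−0.59, adjusted p = 0.0155). Krtdap read 5758, 7061 and 6336 FPKM in control and 5832, 6554 and 4821 in DKO, with overlapping groups. Its log2 difference was −0.16 (95% interval −0.56 to 0.24, limma adjusted p = 0.476), so a decrease as large as 0.56 on the log2 scale is within the interval. It was −0.35 with totals without keratin and envelope genes (adjusted p = 0.0913). It was −0.041 without DKO 6mo replicate 3, −0.086 without control 6mo replicate 2 and −0.26 without DKO 6mo replicate 2.

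At this age 41.3% of 12594 genes were called, 18.2% as lower and 23.2% as higher. The groups of 55.7% of genes did not overlap, 24.0% with DKO lower and 31.8% with DKO higher. The totals without keratin and envelope genes gave 36.6% of calls as higher, against 56.0% as deposited. DKO replicate 3 was the lowest library of its group for all 3 genes. It also had the highest skeletal muscle sum at this age, 156 FPKM against 11.1 to 69.4 in the others, and its part in the result was not tested. Summed adipocyte genes overlapped between the groups (96.2 to 528 FPKM in control, 127 to 467 in DKO). Dermal fibroblast genes summed to 649, 490 and 920 FPKM in control and 306, 385 and 955 in DKO, so that the overlap came from DKO replicate 3, and without it 4 of 8 were called lower. Macrophage, neutrophil and mast cell genes summed to 88.0 to 137 FPKM in control and 303 to 706 in DKO. Langerhans cell genes summed to 1274 to 1637 in control and 806 to 1088 in DKO. Neither list overlapped between the groups, and their part in the fall of Sbsn was not tested. Without DKO 6mo replicate 3 Sbsn was still called (log2 fold change −0.77, limma adjusted p = 0.012). This was the smallest fall among the 6 fits that left out 1 library, which ran from −0.98 to −0.77.

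The genotype effect differed between the ages for all 3 genes. The difference (6 months minus P36, fitted on 12 libraries with each effect taken within its own table) was −1.48 for Sbsn (SE 0.25, limma adjusted p = 0.00131), −1.14 for Dmkn (SE 0.24, adjusted p = 0.00389) and −1.10 for Krtdap (SE 0.29, adjusted p = 0.0132), all on the log2 scale. Among 13280 genes, 34.9% were called for this difference, 21.1% with a negative and 13.8% with a positive value. Each of the 3 calls was also made in all 12 fits that left out 1 library. The shares of calls moved with the scaling, from 39.5% positive as deposited to 54.6% with median-ratio scaling and 27.6% with totals without keratin and envelope genes, and the 3 genes were called under both scalings.

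**Figure D2:**
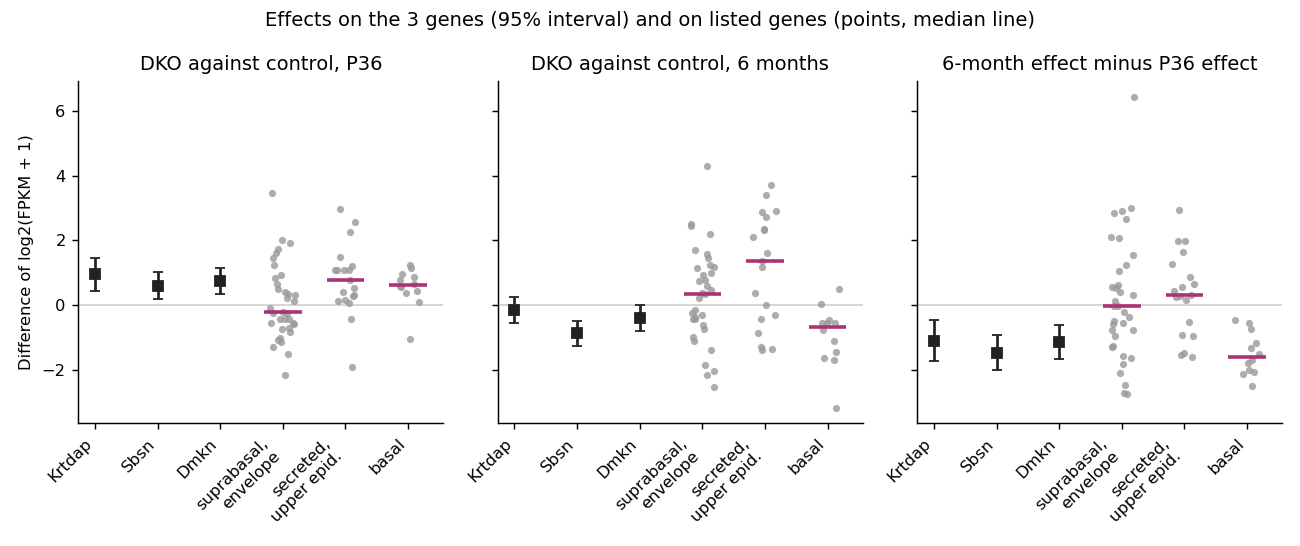
Difference of log2(FPKM + 1) for the 3 genes (squares, 95% interval) and for the measured genes of 3 lists (points, with the list median as a line), for DKO minus control at each age and for the 6-month effect minus the P36 effect. The 3 genes lie above 0 at P36 and below it in the difference between ages, while the points of each keratinocyte list spread to both sides of 0 at P36.

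The 3 genes did not keep the same proportion to each other. A ratio within a library does not depend on how that library was scaled. In control at 6 months, Krtdap over Sbsn was 1.90, 1.83 and 1.79. In DKO it was 3.02, 3.07 and 3.02, above every control library.

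Dmkn over Sbsn at 6 months was 1.16, 1.16 and 1.15 in control and 1.61, 1.61 and 1.61 in DKO, so that libraries of a group differed far less than the groups did. On the log2 scale this ratio was 0.21 ± 0.012 in control and 0.69 ± 0.0029 in DKO (SD, n = 3). Krtdap over Dmkn was 1.64, 1.58 and 1.56 in control and 1.88, 1.90 and 1.87 in DKO. The log2 differences between genotypes at 6 months were 0.72 for Krtdap over Sbsn, 0.48 for Dmkn over Sbsn and 0.24 for Krtdap over Dmkn. Each had an exact two-sided permutation p = 0.1, the smallest that 3 against 3 libraries allow, and 0.12 when adjusted over 6 tests.

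At P36 the ratios were closer to each other and more variable. Krtdap over Sbsn was 0.956, 0.702 and 0.882 in control and 1.16, 0.979 and 1.07 in DKO (log2 difference 0.34, exact permutation p = 0.1). Krtdap over Dmkn differed by 0.20 (exact permutation p = 0.1), and Dmkn over Sbsn by 0.14 with overlapping groups (exact permutation p = 0.3). Without control P36 replicate 2 the first 2 differences were 0.22 and 0.11, and without DKO P36 replicate 1 the last was 0.066. Sbsn had the lowest and Krtdap the highest genotype effect of the 3 genes at both ages, but the exact permutation test cannot pass a threshold of 0.05 with 3 against 3 libraries.

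**Figure D3:**
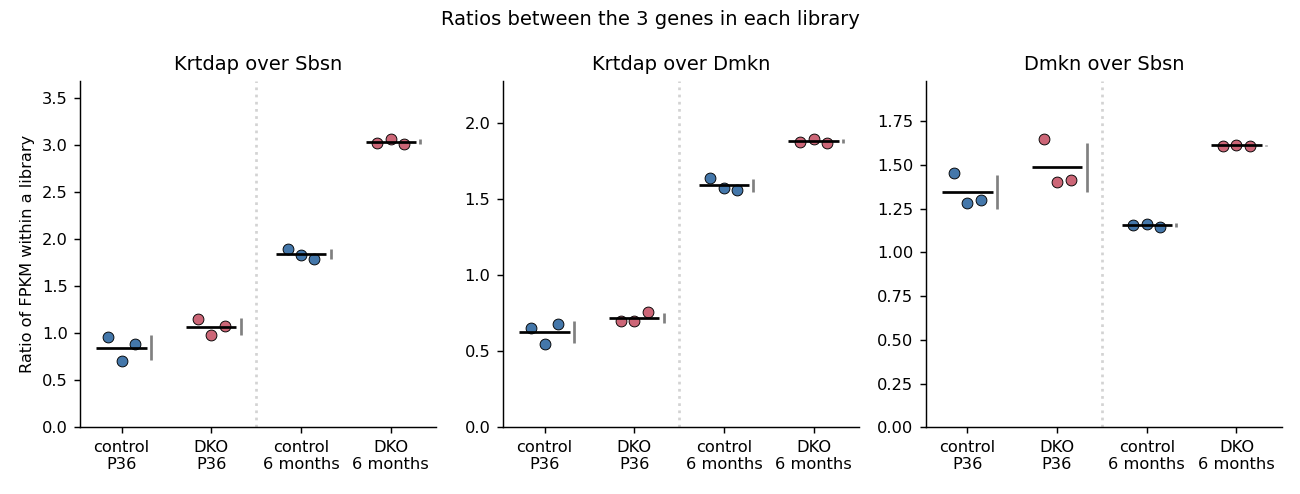
Ratio of FPKM between 2 members within each library; axes start at 0, bars are group means and grey lines ± 1 SD (n = 3). At 6 months the 3 libraries of each group nearly coincide, and Krtdap over Sbsn sits at 1.79 to 1.90 in control and 3.02 to 3.07 in DKO.

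For Sbsn and Dmkn at 6 months, the authors' own ratio was further from 0 than the ratio of the FPKM means. The authors' deposited table gives log2 ratios of −1.21 for Sbsn, −0.84 for Dmkn and −0.15 for Krtdap. The FPKM means of the same libraries give −0.88, −0.40 and −0.15. For Krtdap the 2 values differed by 0.0013, whereas they differed by −0.34 for Sbsn and −0.44 for Dmkn. Only 8 of 12592 genes were at least as far apart as Sbsn and 5 as far apart as Dmkn, counting the gene itself, while 98.4% of genes agreed within 0.05.

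At P36 the values in the authors' deposited table were 0.92 for Krtdap, 0.63 for Sbsn and 0.78 for Dmkn, against 0.92, 0.61 and 0.73 from the FPKM means. The tables do not resolve transcripts, of which RefSeq lists 7 for Sbsn, 5 for Dmkn and 4 for Krtdap. Of these, 2, 5 and 4 are curated, so Sbsn has the fewest by that count. The cause of the gap at 6 months was not tested. By the authors' ratios the log2 difference between Krtdap and Sbsn at 6 months was 1.06, against 0.72 from the FPKM means. For Krtdap and Dmkn it was 0.68 against 0.24. For Dmkn and Sbsn it was smaller by the authors' ratios, at 0.38 against 0.48. The authors' deposited p-values for the 3 genes were 0 or at most 1.76e-155 at both ages, and no source used here names the test behind them.

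**Figure D4:**
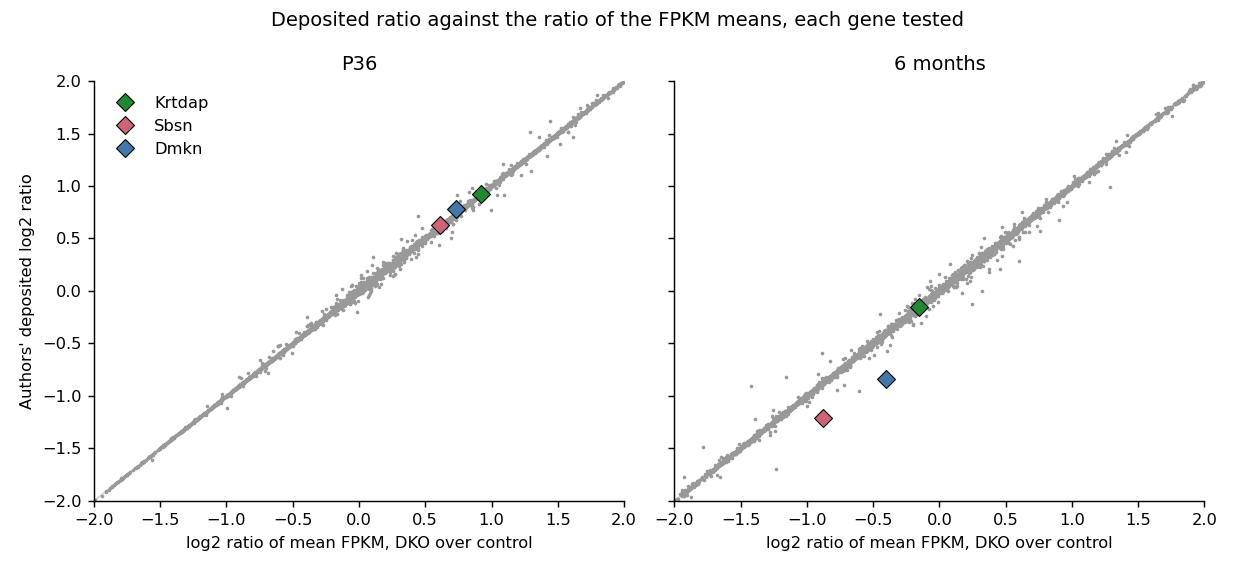
The authors' deposited log2 ratio (DKO over control) against the log2 ratio of the mean FPKM for each gene tested (grey points), with Krtdap, Sbsn and Dmkn as diamonds and the diagonal as a line; 375 genes at P36 and 491 at 6 months lie outside the axes, which end at 2. Sbsn and Dmkn sit below the diagonal at 6 months, by 0.34 and 0.44, and Krtdap sits on it.

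The genes that flank the 3 members were compared to see how far the pattern reached along the chromosome. They were the 5 nearest genes on each side with a curated symbol that met the filter on low values at both ages. Predicted, clone-named and microRNA genes and pseudogenes were passed over. The farthest lay 9 genes from Sbsn (Cox6b1) and 16 genes from Krtdap (Fxyd5) in the RefSeq order. Of these 10 genes, 2 rose and 0 fell at P36, and 3 rose and 4 fell at 6 months. These counts include Ffar2, which met the filter on low values only through DKO at P36 and only through control at 6 months, and so had to differ. Among the other 9 genes 1 rose and 0 fell at P36, and 3 rose and 3 fell at 6 months. Over all tested genes 18.0% were called higher and 5.32% lower at P36, and 23.2% higher and 18.2% lower at 6 months. The neighbour counts were not tested against these shares. With 1 library left out, 1 or 2 neighbours were called higher and 1 to 4 lower at 6 months. Only 1 was higher without control 6mo replicate 1, control 6mo replicate 3 or DKO 6mo replicate 1. Only 1 was lower without control 6mo replicate 2, and 2 without control 6mo replicate 3. At P36, 1 of 9 tested neighbours was higher in each fit that left out 1 DKO library. Ffar2 no longer met the filter in those fits. It also left the test at 6 months when 1 control library was left out. Part of the drop in these counts is therefore a gene leaving the test. The neighbour next to Krtdap, Ffar2, a receptor for short-chain fatty acids, was barely expressed. Its range was 0.41 to 0.69 FPKM in control and 2.14 to 3.82 in DKO at P36, and 1.85 to 3.14 in control and 0.68 to 0.95 in DKO at 6 months. Since the filter fixed its differences, they are given as levels with no test.

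On the other side, next to Sbsn, the sperm-type glycolytic gene Gapdhs stood at 0.933 and 1.39 FPKM at P36 and at 2.04 and 3.13 FPKM in control and DKO at 6 months, where it rose (0.44, limma adjusted p = 0.0405). Tmem147, Gapdhs and Cox6b1, a subunit of cytochrome c oxidase, rose at 6 months, while Rbm42, Usf2 and Lsr, a component of tricellular junctions, fell. Fxyd5 rose at P36 (1.37, limma adjusted p = 0.0011) and read −0.23 at 6 months (adjusted p = 0.237). With median-ratio scaling 1 neighbour was called lower at P36, and with totals without keratin and envelope genes 1 was called higher and 4 lower at 6 months.

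**Figure D5:**
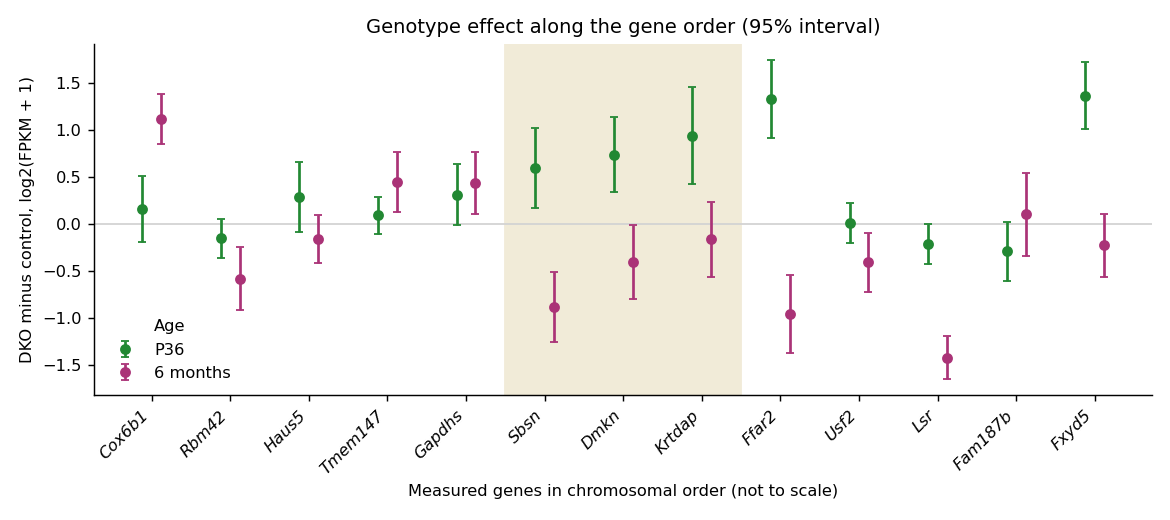
DKO minus control in log2(FPKM + 1), with 95% intervals, for the 3 members (shaded) and 5 genes on each side, in chromosomal order and not to scale. The flanking genes are the nearest with a curated symbol that met the filter at both ages, and other genes lie between them. The 3 members, Ffar2, Fxyd5, Haus5 and Usf2 read above 0 at P36 and below it at 6 months; Gapdhs, Tmem147 and Cox6b1 read above 0 at both ages.

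Other genes of keratinocyte differentiation did not move as one with the 3 members. Of 35 measured suprabasal and cornified envelope genes 9 rose and 7 fell at P36, with a median log2 fold change of −0.23 against 0.09 over all genes. The shares over all tested genes were 18.0% higher and 5.32% lower at P36, and 23.2% and 18.2% at 6 months. No list count here or below was tested against these shares. Krt1, a suprabasal keratin, rose from 184 ± 42.5 to 2001 ± 211 FPKM, and the calmodulin-like gene Calm4 from 297 ± 97.6 to 965 ± 95.9. The envelope protein gene Ivl fell by 1.31 and the transglutaminase gene Tgm3 by 1.15 on the log2 scale. The effect of Krtdap was above that of 28 of the 35 genes, Dmkn of 26 and Sbsn of 25. Counts of higher genes in this list ran from 5 to 11 with 1 library left out: 5 without control P36 replicate 2 or DKO P36 replicate 2, and 6 without control P36 replicate 3, DKO P36 replicate 1 or DKO P36 replicate 3. The median was −0.076 without control P36 replicate 1, −0.096 without DKO P36 replicate 2 and −0.13 without DKO P36 replicate 1. With median-ratio scaling 7 rose and 9 fell, with a median of −0.36.

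At 6 months 13 of 34 measured genes of that list rose and 9 fell (median 0.34, against 0.04 over all genes). With totals without keratin and envelope genes, the counts were 10 and 12 and the median 0.16. The median was 0.21 without control 6mo replicate 1 or DKO 6mo replicate 2. The protease gene Casp14 and Sprr4 rose by 2.50 and 4.28, and Krt77 and Flg2 fell, with log2 fold changes of −2.55 and −2.05. Here Sbsn lay above only 7 of the 34 genes, Dmkn above 11 and Krtdap above 14.

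Genes for other secreted proteins of the upper epidermis formed a second list. Of 19 measured genes 8 rose and 1 fell at P36 (median 0.78, or 0.40 without control P36 replicate 2), and 11 rose and 4 fell at 6 months (median 1.34). Among them 1 gene met the filter through DKO alone at both ages, and the other 18 gave 7 higher and 1 lower at P36 and 10 higher and 4 lower at 6 months. Slurp2, a secreted Ly6-type protein, rose at both ages, by 2.95 and 3.38 on the log2 scale. Psors1c2 fell at both, with log2 fold changes of −1.93 and −1.36. The protease inhibitor gene Cst6 rose at 6 months from 107 ± 8.49 to 465 ± 57.5 FPKM, and the kallikrein gene Klk6 from 9.27 ± 1.74 to 138 ± 43.0 (SD, n = 3). At 6 months the effect of Krtdap was above that of 6 of the 19 genes, Dmkn of 5 and Sbsn of 3.

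In the list of basal keratinocyte genes, more rose than fell at P36 and more fell than rose at 6 months. Of 12 measured genes 7 rose and 1 fell at P36 (median 0.60), and 0 rose and 9 fell at 6 months (median −0.67). The integrin gene Itga6 rose by 1.13 on the log2 scale at P36. Krt15 and Col17a1, a hemidesmosome collagen, fell by 3.18 and 1.70 at 6 months. Without DKO P36 replicate 2 or DKO P36 replicate 3 only 4 of the 12 were called higher at P36, and without DKO 6mo replicate 1 only 6 were called lower at 6 months.

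Over the 12 libraries Dmkn closely resembled Krtdap and Sbsn, which were less like each other, and the genes most like each member lay elsewhere. Likeness was measured as Pearson's r of log2(FPKM + 1) over 12 libraries, among 12764 genes with a mean of at least 1 FPKM. The libraries fall into groups by age and genotype, so these values describe the pattern and carry no test. For Krtdap and Dmkn r was 0.979, for Sbsn and Dmkn 0.975, and for Krtdap and Sbsn 0.934. Dmkn ranked 47 among the genes most like Krtdap and 22 among those most like Sbsn. Krtdap ranked 19 and Sbsn 30 among those most like Dmkn. Sbsn ranked only 542 among the genes most like Krtdap, and Krtdap 244 among those most like Sbsn.

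After the mean of each group was removed, r was 0.959 for Krtdap and Dmkn, 0.933 for Sbsn and Dmkn and 0.879 for Krtdap and Sbsn, so the members also varied together within groups. Measured this way, r was 0.773 to 0.936 for the 5 genes most like Krtdap over all libraries, below Dmkn with Krtdap (0.959). It was 0.691 to 0.909 for the 5 genes most like Sbsn, below Dmkn with Sbsn (0.933). The value for Krtdap and Sbsn (0.879) lay within both ranges. The 5 genes of each member were chosen by r over all libraries and not by this measure. No rank among all genes is given for it, so these values do not show whether the shared variation is particular to the members. Among the 5 genes most like Krtdap were Slc6a14, an amino acid transporter gene, Pir, Abca12, which carries lipids into lamellar granules, and Gpld1 (r 0.990 to 0.996). Slc6a14 followed Krtdap from 6.81 and 12.5 FPKM in control and DKO at P36 to 58.5 and 54.5 at 6 months.

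Closest to Sbsn were Ly6m, Lrrfip2, the fatty acid elongase gene Elovl1, Laptm4b and Cyp2j9 (r 0.983 to 0.993). Ly6m went from 4.92 to 8.98 FPKM at P36 and from 43.0 to 16.6 at 6 months. Closest to Dmkn were Fndc9, Gal3st4, Ankrd35, Dkkl1 and Ranbp9 (r 0.985 to 0.990). Dkkl1 went from 22.5 to 47.6 FPKM at P36 and from 178 to 98.4 at 6 months. The 3 sets of 5 shared no gene. As their choice by likeness implies, genes like Krtdap read between −0.12 and 0.10 at 6 months on the log2 scale, and genes like Sbsn between −1.33 and −0.60.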

How the data were processed

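Per the file headers, the authors gave FPKM values by gene and library in 1 deposited table for each age. Per the file headers, these tables also hold the authors' log2 ratio (DKO to control) with its p-value and q-value. HISAT2 2.1.0 and RSEM 1.2.8 are named in the submitters' processing notes, where human builds (GRCh38, hg38) stand beside mouse samples. The age of a table comes from its name. Entrez identifiers were matched to RefSeq symbols of GRCm38.p6 (19343 of 19392 at P36, 17712 of 17750 at 6 months). The spacing of low values did not give relative depth, since a pair of libraries had only 15 to 71 usable low genes, and counting intervals are left out. At most 0.393% of genes had identical values in 2 libraries.

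In R 4.3.3, limma 3.58.1 with a trend was fitted to log2(FPKM + 1) for genes that reached 1 FPKM in 3 or more libraries. Changes of low genes are understated on this scale. Adjustment was made over all genes by the Benjamini-Hochberg method, with calls below 0.05. Fits were tested on simulated data. The design named a count test for the case of counts, and limma for FPKM. Ratios between members were compared by exact two-sided permutation. The members, lists and motifs were chosen with earlier results of these data known. Named are the members, the targeted genes, and part of the up to 4 genes per list with the smallest adjusted p. Also named are the 5 nearest genes per side that met the filter at both ages and the 5 genes most like each member. Both of these were limited to curated symbols. Some genes under this rule are not reported here. Marker lists for macrophages and related cells and for Langerhans cells were also read: 6 of 9 and 3 of 5 rose at P36, and 1 and 0 fell. At 6 months 3 and 1 rose, and 1 and 2 fell.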

Additional observations from a re-analysis of the deposited data

Results flagged for a closer look

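The genotype effect differed between the ages, by limma's test of the difference itself, for Krtdap (−1.10, 6 months minus P36 on the log2 scale), Sbsn (−1.48) and Dmkn (−1.14). All 3 were higher in DKO at P36 and had a lower or a negative value at 6 months. Among their neighbours the difference was called for Fxyd5 (−1.59), Lsr (−1.20) and Cox6b1 (0.96). The value of Ffar2 (−2.29) carries no weight as a test, since this gene met the filter on low values only through DKO at P36 and only through control at 6 months.

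Of 35 suprabasal and envelope genes 8 were called with a positive and 9 with a negative difference (12 and 7 with median-ratio scaling). They include Krt10 (−2.71), Krt1 (−2.48) and Krt77 (−2.12), with the sign of the 3 members, and Ivl (2.08), Tgm3 (2.86) and Sprr4 (6.44), with the opposite sign. Of 19 secreted proteins 4 were called with a positive difference, among them Cst6 (1.98) and Klk6 (2.94), and 5 with a negative one, among them Wfdc5 (−1.54). Basal genes had negative differences, in Itga6 (−1.70), Krt15 (−2.12) and Col17a1 (−2.06). Over all genes 34.9% were called for this difference.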

How the results depend on the processing

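Besides the values above, 8 alternatives were run for each age and 7 for the difference between ages, and none reversed the sign of a member. At P36 median-ratio scaling ended the calls of Krtdap (0.81, adjusted p = 0.05) and Dmkn (0.60, adjusted p = 0.0616), while Sbsn was called without the variance trend (0.60, adjusted p = 0.0479) and in the joint fit of 12 libraries (0.60, adjusted p = 0.0313). At 6 months Dmkn was called with totals without keratin and envelope genes (−0.59). Median-ratio scaling moved the median of all genes at P36 from 0.09 to −0.03, and relative to that median Krtdap stood at 0.85 as deposited and 0.84 after scaling. With 1 library left out, the P36 count of 2949 ran from 1662 (without DKO P36 replicate 2) to 2660, with 1697 without DKO P36 replicate 3. Krtdap ran from 0.71 to 1.09, Sbsn from 0.48 to 0.78 and Dmkn from 0.60 to 0.85. A replicate block was also fitted, although the labels do not say whether equal numbers pair samples. The r between same-numbered deviations was −0.12 to 0.13 at P36 and −0.06 to 0.18 at 6 months. Between unlike numbers it was −0.21 to 0.21 and −0.20 to 0.23. With 3 libraries per group these values cannot decide whether samples were paired. With the replicate block 2607 genes were called at P36, 4862 at 6 months and 4223 for the difference, and no call of a member changed. Of the called genes among the members, targeted genes, neighbours, lists and like genes (50 at P36, 61 at 6 months, 55 for the difference), 0 turned sign under the 2 other scalings. List counts under other scalings, without single libraries and without genes that met the filter through 1 genotype alone were computed after seeing the data.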

Other observations

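At 6 months the genes whose deposited log2 ratio lay furthest from the ratio of the FPKM means were Il18r1 (0.52), Degs2 (−0.50), Cdhr1 (−0.46), Tiam2 (−0.46) and Dmkn (−0.44), followed by Ndufv3 (−0.38), Syngr1 (−0.35) and Sbsn (−0.34). Degs2 encodes an enzyme that makes phytoceramides. In the authors' deposited table its ratio was 3.07, against 3.56 from the FPKM means. These genes were chosen after their values were seen.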
